A study of Mus musculus with 2 samples.

Results

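The horizontal and amacrine fate factors are *Ptf1a*, *Foxn4*, *Prdm13*, *Onecut1*, *Onecut2*, *Onecut3* and *Prox1*, 7 genes chosen by symbol out of the 31053 genes listed for both single-cell RNA-seq libraries. They were followed across mouse retinal cell groups at E13.5 in 1 control and 1 double knockout (DKO) library. The DKO embryo was *Six3* F/F;*Six6*-/-;*α-Cre*, which removes *Six6* from every cell and *Six3* only where the α-Cre transgene is active, in the peripheral retina and not at its centre, so its retina was a mosaic. The littermate control was *Six3*+/-;*Six6*+/- without the Cre and thus lacked 1 functional allele of each gene. Each library came from the eyecups of a single embryo, with lens and blood cells included, and there were no replicates. The control library kept 9822 of 10315 cells with a median of 7620 UMIs (unique molecular identifiers, counted molecules) per cell, and the DKO library kept 12146 of 12672 cells with a median of 5879. The libraries shared 22 cell barcodes.

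Horizontal and amacrine cells are the inhibitory interneurons of the retina and are born from the same multipotent progenitors as ganglion cells, cones and rods. *Foxn4*, a forkhead factor of progenitors, promotes the competence to form both interneurons and acts upstream of *Ptf1a*, a bHLH factor that works in a complex with an E protein and RBPJ and directs newly postmitotic cells away from the ganglion fate. *Prdm13*, a zinc finger factor downstream of *Ptf1a*, favours amacrine subtypes, while the cut-homeodomain factors *Onecut1* and *Onecut2* and the homeodomain factor *Prox1* are required for or promote the horizontal fate. *Onecut3* is the third member of the Onecut family and is expressed in developing ganglion and horizontal cells.

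The sequences just upstream of *Ptf1a* and *Prdm13* are shown because each of these genes had the other as its closest match over cell groups and because the complex formed by Ptf1a reads an E-box together with an RBPJ half-site. RefSeq promoter entries of GRCm38.p6 were used for 5 of the 7 members. *Onecut2* was not searched, and no entry was matched for *Onecut3*. The 250 bases upstream of *Ptf1a* (chr2:19445413-19445662, plus strand) and of *Prdm13* (chr4:21685964-21686213, minus strand) read as follows, 5′ to 3′, with capitals marking the RBPJ half-site TGGGAA or its reverse complement TTCCCA.
Ptf1a: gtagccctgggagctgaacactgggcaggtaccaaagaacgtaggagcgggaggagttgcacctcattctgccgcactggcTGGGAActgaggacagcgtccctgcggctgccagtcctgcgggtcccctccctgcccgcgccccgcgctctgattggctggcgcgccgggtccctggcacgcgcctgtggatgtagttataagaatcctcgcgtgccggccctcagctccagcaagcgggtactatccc
Prdm13: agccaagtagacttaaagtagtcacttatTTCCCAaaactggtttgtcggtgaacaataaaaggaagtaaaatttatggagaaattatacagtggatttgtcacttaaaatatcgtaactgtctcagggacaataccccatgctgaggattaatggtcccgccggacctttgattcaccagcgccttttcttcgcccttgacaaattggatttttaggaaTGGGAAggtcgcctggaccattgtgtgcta
The *Ptf1a* window held 1 half-site and the *Prdm13* window held 2, and neither held the E-box CANNTG. Over both strands, 21.6% of all 32851 promoter windows of that length held the half-site and 66.2% held the E-box, so these matches are a description of the letters alone. The *Ptf1a* window was 66.0% G or C and the *Prdm13* window 41.6%, against a median of 52.4% over all windows. The gene bodies lie at chr2:19445663-19447501 for *Ptf1a*, chr4:21677480-21685963 for *Prdm13*, chr5:114254164-114273807 for *Foxn4*, chr9:74861921-74891781 for *Onecut1*, chr10:80494835-80517276 for *Onecut3* and chr1:190118035-190170714 for *Prox1* in mm10.

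The targeted genes were read first as a check of the labels. Over all retinal cells (8034 control and 10714 DKO cells), *Six6* was at 298 CPM (the gene's share of all UMIs in the group on the counts-per-million scale) in the control and 45.9 CPM in the DKO library, a log2 ratio of −2.70. *Six3* was at 357 and 339 CPM. The paper reports that *Six3* read coverage, also at the 3′ end, fell in bulk RNA-seq of compound-null retinas. Since the DKO retina here was a mosaic and the control was *Six3*+/-, this total does not check the deletion of *Six3*. Cells were grouped into 21 clusters, of which 14 were retinal. Classes were named from marker genes that hold no member, as naive progenitor-like (3607 control and 3123 DKO cells), neurogenic-like (1405 and 1730), ganglion-like (1079 and 2376), photoreceptor-like (87 and 114) and amacrine- or horizontal-like (116 and 184). The names were rebuilt from the counts and may differ from those of the study. Clusters 10 and 14, with 619 and 429 cells of the DKO library and none of the control, cluster 5, which carried margin and pigment genes, and cluster 3, with 1029 and 1155 cells at a median of 993.5 UMIs, were left unnamed but counted as retinal. Cluster 4, here ganglion-like, also passed the amacrine- or horizontal-like list, and the amacrine- or horizontal-like cluster 17 also passed the neurogenic-like list. Cluster 10 passed the amacrine- or horizontal-like list alone. It was kept out of that class only because clusters nearly without control cells were not named, and the values of the class depend on this rule. Brackets and ranges below are exact 95% intervals, cover counting error only, and say nothing of the spread between embryos.

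The markers that define the amacrine- or horizontal-like class were read beside it. Of the 6 markers, 5 had UMIs in the control and all 6 in the DKO library, with a summed level of 981 and 1394 CPM. *Tfap2b* made up most of it, and *Gad1*, the gene of a GABA-synthesizing enzyme, had 0 and 2 UMIs, while *Gad2* had 32 and 90 and the vesicular transporter gene *Slc32a1* had 24 and 63. Genes of other cells were present too and differed between the libraries. The ganglion-like list of 7 genes stood above the class's own markers in both libraries, at 1241 and 1481 CPM. The neurogenic-like list was lower in the DKO cells of the class (604 against 1216 CPM over 5 genes) and so was the naive progenitor-like list (361 against 689 CPM over 6 genes), while 6 red blood cell genes were higher (23429 against 7685 CPM). Their part in the ratios was not tested, but leaving hemoglobin and mitochondrial UMIs out of the totals kept each ratio within its counting interval.

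**Figure D1:**
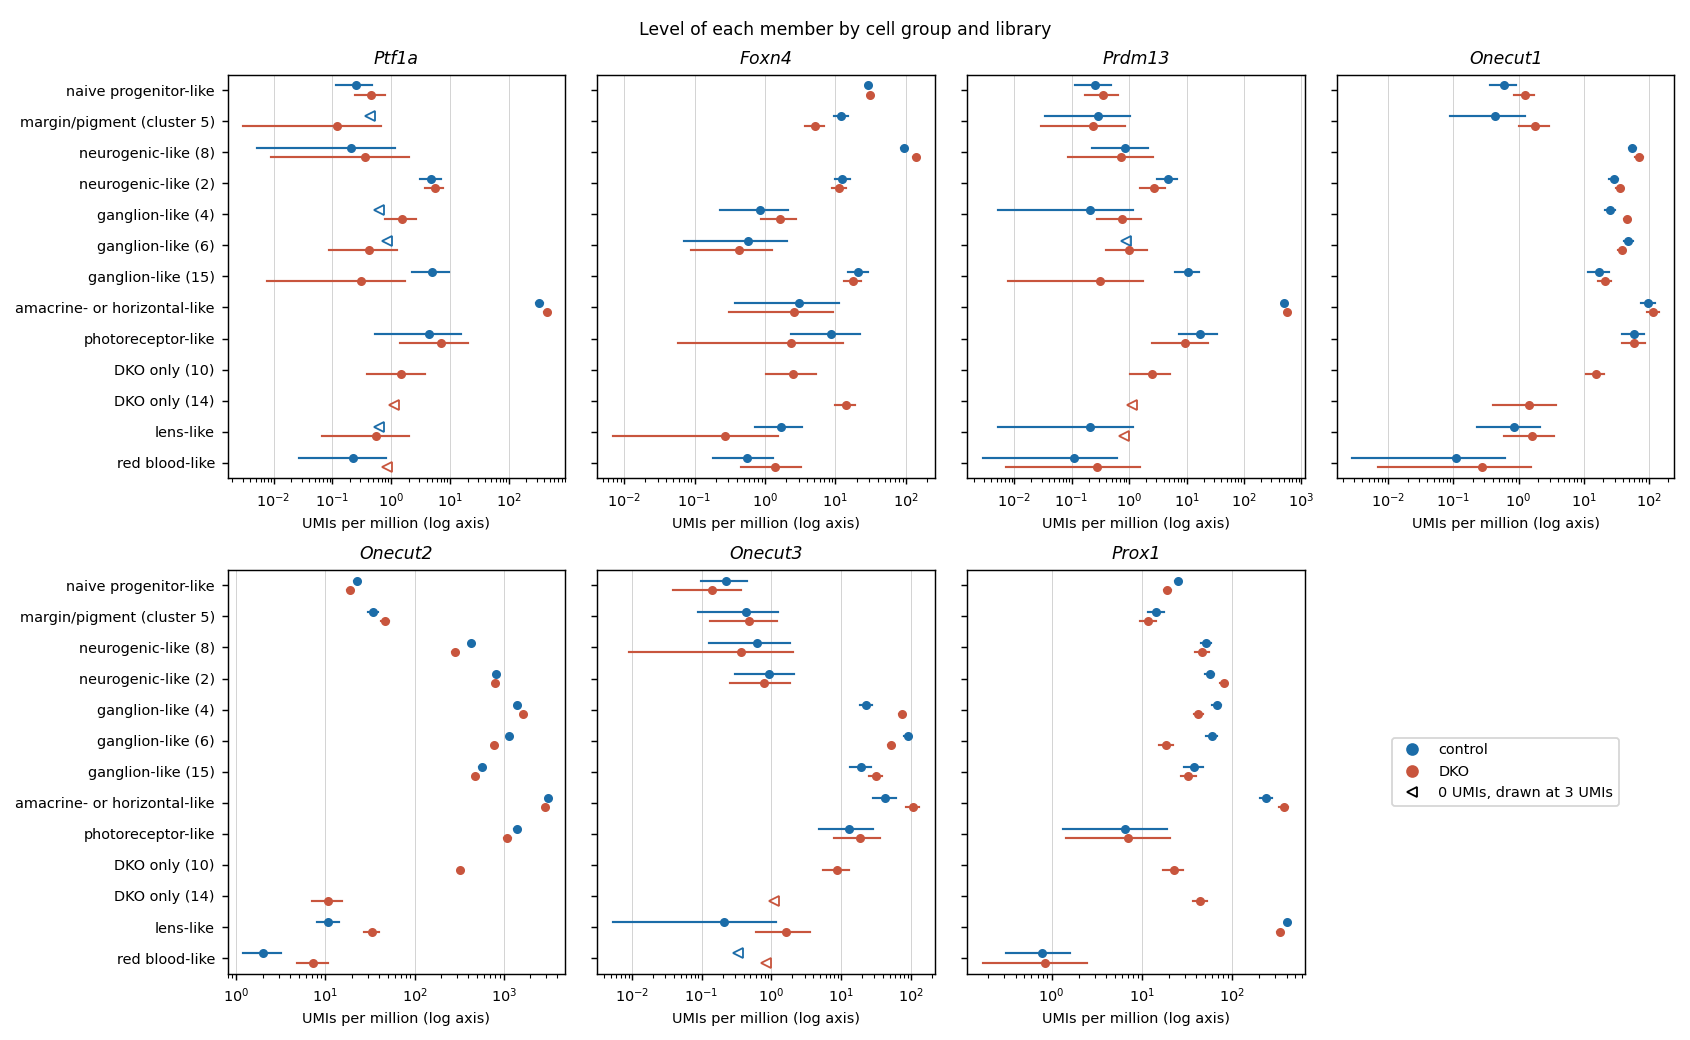
Level of each of the 7 genes, in CPM on a log axis, by cell group (rows) and library (blue, control; red, DKO), with lines for exact 95% counting intervals and open triangles for groups with 0 UMIs, drawn at the level of 3 UMIs. *Ptf1a* and *Prdm13* lay between 334 and 559 CPM in amacrine- or horizontal-like cells and at 17.4 or less in every other group shown, while *Foxn4* was highest in neurogenic-like cluster 8.

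*Foxn4* was found mainly in naive progenitor-like and neurogenic-like cells and was near 0 in the interneuron-like cells. Naive progenitor-like cells held 60.5% of its retinal UMIs in the control and 57.4% in the DKO library, at 29.3 CPM (27.5 to 31.1) and 31.0 CPM (29.0 to 33.2), a log2 ratio of 0.09 [−0.05, 0.22]. Its highest level was in cluster 8, one of the neurogenic-like clusters, at 92.7 CPM (84.3 to 102) in the control and 141 CPM (127 to 156) in the DKO library. The log2 ratio there was 0.61 [0.41, 0.81]. In the other neurogenic-like cluster, cluster 2, the levels were 12.6 and 11.3 CPM. In cluster 5 *Foxn4* was lower in the DKO library, at 5.12 against 12.2 CPM (−1.25 [−1.81, −0.70]). The 116 control and 184 DKO amacrine- or horizontal-like cells held 2 *Foxn4* UMIs each. In the whole retina *Foxn4* was at 26.3 CPM (1719 UMIs) in the control and 21.1 CPM (1522 UMIs) in the DKO library, −0.32 [−0.42, −0.22]. This lower retinal total thus stood beside a level in naive progenitor-like cells whose interval included 0 and a higher one in cluster 8.

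*Ptf1a* UMIs were concentrated in the amacrine- or horizontal-like cells, which held 82.2% of the retinal total in the control and 82.5% in the DKO library. In those cells *Ptf1a* was at 334 CPM (291 to 381, 217 UMIs) in the control and 446 CPM (400 to 495, 349 UMIs) in the DKO library, a ratio of 0.42 [0.17, 0.67] on the log2 scale. The next group in the control was ganglion-like cluster 15 at 5.01 CPM, which did not differ from neurogenic-like cluster 2 (4.74 CPM) beyond counting error. In cluster 2 *Ptf1a* was at 5.49 CPM in the DKO library. Its level over all retinal cells was 4.04 CPM (264 UMIs) and 5.87 CPM (423 UMIs), 0.54 [0.31, 0.76]. The amacrine- or horizontal-like cells were 1.44% of retinal cells in the control and 1.72% in the DKO library.

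*Prdm13* followed the same cells. Amacrine- or horizontal-like cells held 82.7% and 88.5% of its retinal UMIs, at 506 CPM (453 to 563) in the control and 559 CPM (508 to 614) in the DKO library, and the log2 ratio of 0.15 [−0.06, 0.36] did not exclude 0. The values over all retinal cells were 6.10 and 6.87 CPM, 0.17 [−0.02, 0.37]. *Prdm13* and *Ptf1a* had UMIs in ganglion-like cluster 15 of the control (19 and 9 UMIs) but 1 UMI each there in the DKO library. Cluster 15 cells had a median of 16088 UMIs in the control, and leaving out cells called as doublets moved the *Prdm13* ratio of the ganglion-like class from −1.38 (20 and 14 UMIs) to 2.80, so no direction was read from it.

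The same cells carried both transcripts. Retinal cells were thinned to 2000 UMIs each, which kept 7086 control and 9519 DKO cells and left out 948 and 1195 shallower ones. Of the kept cells, 30 of 55 control cells with a *Ptf1a* UMI also had a *Prdm13* UMI (54.5%, 40.6 to 68.0), against 0.626% of the 7031 cells without *Ptf1a*. In the DKO library the shares were 71 of 118 (60.2%, 50.7 to 69.1) and 0.50%. *Foxn4* was found in 0 of 55 and 0 of 118 thinned *Ptf1a* cells, which at this depth allows up to 5.45% and 2.54% of cells with a UMI by the limit of 3 counts and 6.49% and 3.08% by the exact interval, against 4.79% and 3.51% of cells without *Ptf1a*. At full depth, 3 of 115 control and 8 of 179 DKO *Ptf1a* cells carried *Foxn4*, against 15.3% and 9.94% of all retinal cells. *Onecut2* accompanied *Ptf1a* in 94.5% and 91.5% of cells, against 27.9% and 32.8% of the rest. *Onecut3* did so in 1 of 55 control and 13 of 118 DKO cells, against 1.34% and 3.07% of all thinned retinal cells.

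**Figure D2:**
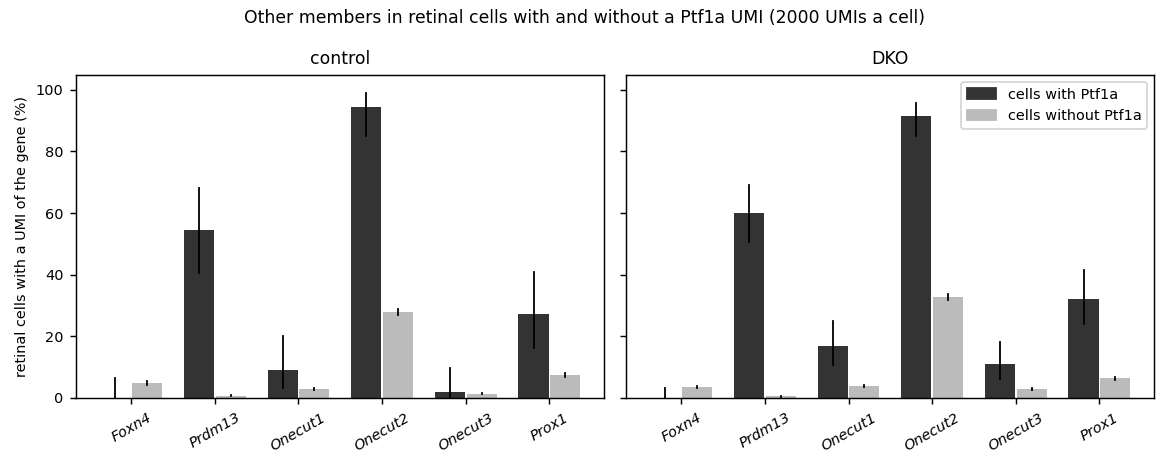
Share of retinal cells, in percent, with a UMI of each other gene among cells with (dark bars) and without (light bars) a *Ptf1a* UMI in the control (left) and DKO (right) library, cells thinned to 2000 UMIs and shallower cells left out, with lines for exact 95% binomial intervals. *Prdm13* was in 54.5% and 60.2% of the *Ptf1a* cells and in 0.626% and 0.50% of the others, and *Foxn4* was in none of the *Ptf1a* cells.

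Shares of amacrine- or horizontal-like cells with a UMI depended on depth, since their median was 5243.5 UMIs in the control and 3820.5 in the DKO library. At 2000 UMIs per cell, which left out 2 control and 5 DKO cells, *Ptf1a* was detected in 45 of 114 control cells (39.5%, 30.4 to 49.1) and 102 of 179 DKO cells (57.0%, 49.4 to 64.3). Without thinning the shares were 75.9% and 73.4%. *Prdm13* was detected in 54.4% and 60.9% of thinned cells, *Prox1* in 28.9% and 41.3%, and *Onecut3* in 7.89% and 17.3%, with unthinned shares of 80.2% and 82.1%, 49.1% and 63.0%, and 14.7% and 25.0%. Red blood-like clusters 7 and 11 (1074 control and 550 DKO cells), which should lack all of these genes, had a median of 8455 UMIs in the control and 6323.5 in the DKO library and showed at most 0.0941% of thinned cells with *Ptf1a*, *Prdm13* or *Prox1*. *Onecut3* was in 0 of 1063 and 0 of 536 of them, which allows a share of up to 0.282% and 0.560%. Red blood-like cluster 12, with a median of 999 UMIs per cell over both libraries, was not part of this background and held 3 and 4 *Ptf1a*, 4 and 3 *Prdm13*, 167 and 325 *Onecut2* and 1 and 4 *Onecut3* UMIs. These were out of 1133300 and 805823 UMIs, whereas clusters 7 and 11 held 18 and 26 *Onecut2* UMIs out of 8978538 and 3582830. Cluster 12 was left out of the retinal total by its name, and whether it held neurons was not tested.

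*Onecut2* was detected in naive progenitor-like cells and was higher in neurogenic-like, ganglion-like, photoreceptor-like and amacrine- or horizontal-like cells. Its control level was 22.6 CPM in naive progenitor-like cells, 434 CPM in neurogenic-like cluster 8, 823 CPM in cluster 2, 1158 CPM in ganglion-like cells and 3139 CPM (3004 to 3278) in amacrine- or horizontal-like cells. The highest group was the same in the DKO library, at 2939 CPM (2820 to 3062), −0.09 [−0.18, −0.01]. The ratio differed between clusters within a class. In cluster 8 the DKO level was lower (286 CPM, −0.60 [−0.72, −0.48]), and in cluster 2 the ratio was −0.06 [−0.12, 0.00]. The DKO level was lower in ganglion-like cluster 6 (770 against 1139 CPM, −0.56 [−0.62, −0.50]) and higher in ganglion-like cluster 4 (1645 against 1395 CPM, 0.24 [0.20, 0.28]). In photoreceptor-like cells *Onecut2* was at 1414 CPM in the control and 1095 CPM in the DKO library. Its retinal level was 337 and 424 CPM, 0.33 [0.31, 0.36]. Within classes the ratio was −0.26 in naive progenitor-like, −0.01 in neurogenic-like and −0.07 in ganglion-like cells, and it was 0.44 in cluster 5. The neurogenic-like value also carries the shares of its clusters. Cluster 8 had 528 control and 394 DKO cells, and cluster 2 had 877 and 1336. The retinal ratio thus also carries the shares of the classes, with ganglion-like cells at 13.4% of retinal cells in the control and 22.2% in the DKO library.

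*Onecut1* was spread over neurogenic, ganglion-like and interneuron-like cells. In amacrine- or horizontal-like cells it was at 98.4 CPM (64 UMIs) in the control and 117 CPM (92 UMIs) in the DKO library, 0.26 [−0.22, 0.74]. Cluster 8 held 56.3 and 70.0 CPM, and photoreceptor-like cells 58.8 and 60.3 CPM. The ganglion-like clusters went in opposite directions, as for *Onecut2*, with 25.8 and 46.5 CPM in cluster 4 (0.85 [0.55, 1.16]) and 48.5 and 38.6 CPM in cluster 6 (−0.33 [−0.61, −0.04]). Over all retinal cells the level was 13.4 CPM in the control and 18.7 CPM in the DKO library, 0.48 [0.36, 0.61]. *Onecut1* overlaps a noncoding gene on the same strand, Gm20649, which had 334 UMIs over both libraries.

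The ganglion-like class held 89.6% of the retinal *Onecut3* UMIs in the control and 89.1% in the DKO library, with cluster 4 counted under that name. *Onecut3* had the largest retinal ratio of the 7 genes, with 510 UMIs (7.81 CPM) in the control and 1197 UMIs (16.6 CPM) in the DKO library, 1.09 [0.94, 1.24]. The ganglion-like class was 13.4% of retinal cells in the control and 22.2% in the DKO library, and this share enters the retinal ratio. Within the ganglion-like class the levels were 45.6 and 58.4 CPM, 0.36 [0.20, 0.52], which turned to −0.18 [−0.37, 0.01] when the libraries were merged without integration. Ganglion-like cluster 6 held 61.4% of its retinal UMIs in the control and 31.0% in the DKO library, at 90.4 and 52.6 CPM (−0.78 [−1.0, −0.56]). Cluster 4 held 21.4% and 49.6%, at 22.9 and 74.5 CPM (1.70 [1.41, 2.01]). In amacrine- or horizontal-like cells *Onecut3* was at 43.0 CPM (28.6 to 62.2, 28 UMIs) in the control and 107 CPM (85.5 to 133, 84 UMIs) in the DKO library, 1.32 [0.68, 1.99].

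At a finer resolution, 622 of the 1269 DKO cells and 91 of the 610 control cells of cluster 4 fell into a separate cluster led by *Tac1*, a neuropeptide precursor gene. Without the cells of that cluster, the ganglion-like ratios were 0.14 [−0.07, 0.36] for *Onecut1*, −0.36 [−0.40, −0.32] for *Onecut2* and 0.24 [0.06, 0.41] for *Onecut3*. The ganglion-like ratio of *Onecut2* was −0.07 with those cells, and that of *Onecut1* was 0.28, which turned to −0.072 when the libraries were merged without integration.

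*Prox1* differed between the libraries in opposite directions in different classes. In amacrine- or horizontal-like cells it was at 237 CPM (201 to 277, 154 UMIs) in the control and 373 CPM (331 to 418, 292 UMIs) in the DKO library, 0.66 [0.37, 0.95]. At a finer resolution, where that name also took the *Tac1*-led cluster, it was −0.74. In neurogenic-like cells it was also higher in the DKO library, at 70.3 against 54.4 CPM (0.37 [0.20, 0.54]), with 0.51 [0.30, 0.72] in cluster 2 and −0.17 [−0.49, 0.15] in cluster 8. Merged without integration, the neurogenic-like ratio turned to −0.20 [−0.43, 0.02]. It was lower in ganglion-like cells, at 31.5 against 59.5 CPM (−0.92 [−1.08, −0.75]), with the largest gap in cluster 6 at 18.7 against 59.8 CPM. In naive progenitor-like cells it was at 19.1 against 25.1 CPM, −0.39 [−0.55, −0.24]. The sum over all retinal cells, 35.5 and 32.6 CPM, averaged over these opposite directions. *Prox1* was also abundant in lens-like cells, where it is a known factor of fibre differentiation, at 410 CPM in the control and 335 CPM in the DKO library. An antisense gene, *Prox1os*, overlaps it with 776 UMIs of its own, and the 10x counts are assigned by strand.

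Over all retinal cells, 5.77% of 14257 genes with at least 50 UMIs were at least 2-fold higher in the DKO library and 1.12% at least 2-fold lower. Of the 7 fate factors 1, *Onecut3*, was 2-fold higher and none was 2-fold lower, and their median log2 ratio was 0.33 against 0.04 over all genes. These retinal values also carry the differing shares of the cell classes in the libraries. In naive progenitor-like cells 1 of 4 testable members (*Onecut1*, 21 and 35 UMIs) passed 2-fold, against 4% of genes in either direction. None of 5 did so in neurogenic-like cells and none of 5 in ganglion-like cells, where 4.45% and 4.91% of genes did. In amacrine- or horizontal-like cells 1 of 6, again *Onecut3*, passed 2-fold, against 2.74% of 4600 genes.

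**Figure D3:**
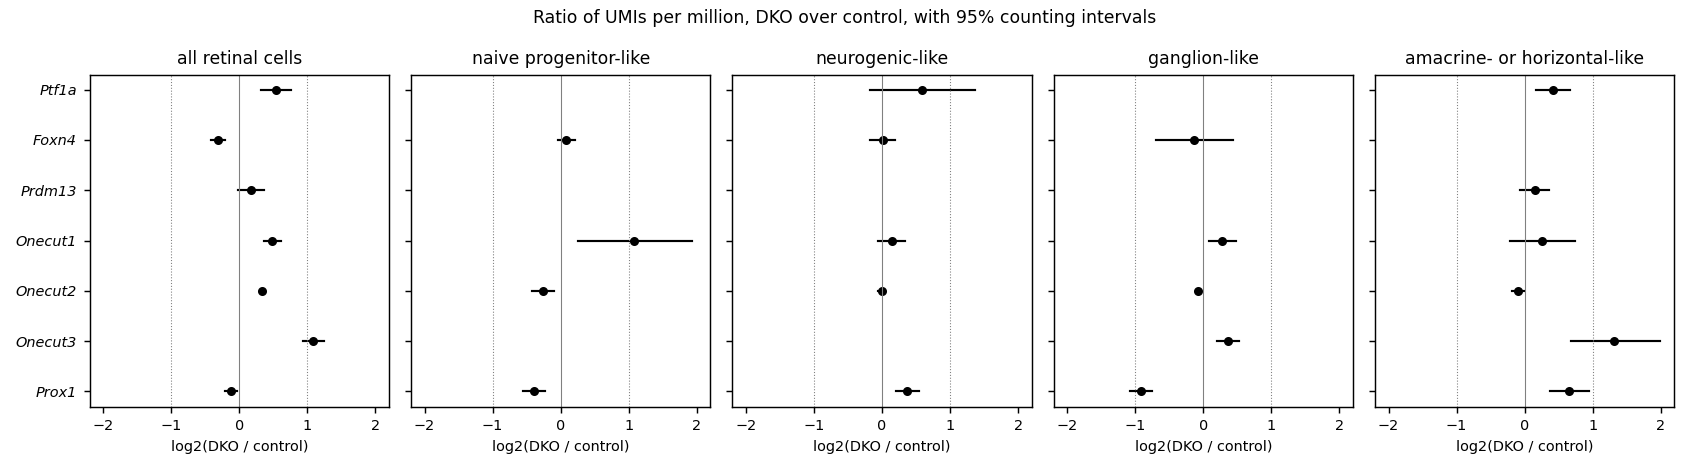
Log2 ratio of CPM, DKO over control, for each gene over all retinal cells and within 4 cell classes, with lines for exact 95% counting intervals, dotted lines at 2-fold and genes with under 50 UMIs over both libraries left out. *Prox1* lay above 0 in neurogenic-like and amacrine- or horizontal-like cells and below 0 in naive progenitor-like and ganglion-like cells, and *Onecut3* was the only gene past 2-fold over all retinal cells.

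Clustered alone, the amacrine- or horizontal-like cells fell into 3 subclusters, which are called here by their leading genes, and the fate factors were not among the features used to form them. Subcluster 1 (44 control and 60 DKO cells, led by *Onecut3*, *Tfap2a*, *Nefl* and *Lhx1*) held all 28 control *Onecut3* UMIs and 76 of the 84 in the DKO library, at 122 CPM (81.1 to 176) and 306 CPM (241 to 383). The log2 ratio there, 1.33 [0.68, 2.01], stood beside 1.32 in the whole class. *Prox1* was at 497 and 612 CPM in the same subcluster, 0.30 [−0.06, 0.66]. Subcluster 0 (19 control and 92 DKO cells, led by hemoglobin genes, *Cldn5* and *Pou2f2*) had the highest *Ptf1a* and *Prdm13* values in both libraries. For *Ptf1a* in the DKO library, its interval overlapped that of subcluster 2, so these are not told apart. There *Ptf1a* was at 532 and 554 CPM, 0.06 [−0.39, 0.53], and *Prdm13* at 1075 and 687 CPM, −0.65 [−0.98, −0.30]. Subcluster 2 (53 control and 32 DKO cells, led by *Gal* and the ganglion competence gene *Atoh7*) had *Ptf1a* at 248 and 439 CPM (0.83 [0.33, 1.31]) and *Prdm13* at 318 and 492 CPM (0.63 [0.18, 1.07]). In subcluster 1 *Ptf1a* was at 375 CPM in the control and 282 CPM in the DKO library, −0.41 [−0.89, 0.06]. Subcluster 0 held 50 of the 217 control *Ptf1a* UMIs of the class and 213 of the 349 in the DKO library. *Prox1* had 11 control and 124 DKO UMIs in subcluster 0, 1.46 [0.57, 2.50]. In subcluster 2 it had 29 and 16 UMIs, 0.26 [−0.72, 1.19]. The 6 red blood cell genes summed to 12533 CPM in the control and 33541 CPM in the DKO library in subcluster 0, to 11954 and 21825 CPM in subcluster 1 and to 3296 and 239 CPM in subcluster 2, and their part in these values was not tested. Subcluster 0 held 92 of 184 DKO and 19 of 116 control cells, and the share of cells and the level within a subcluster both enter the class values.

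**Figure D4:**
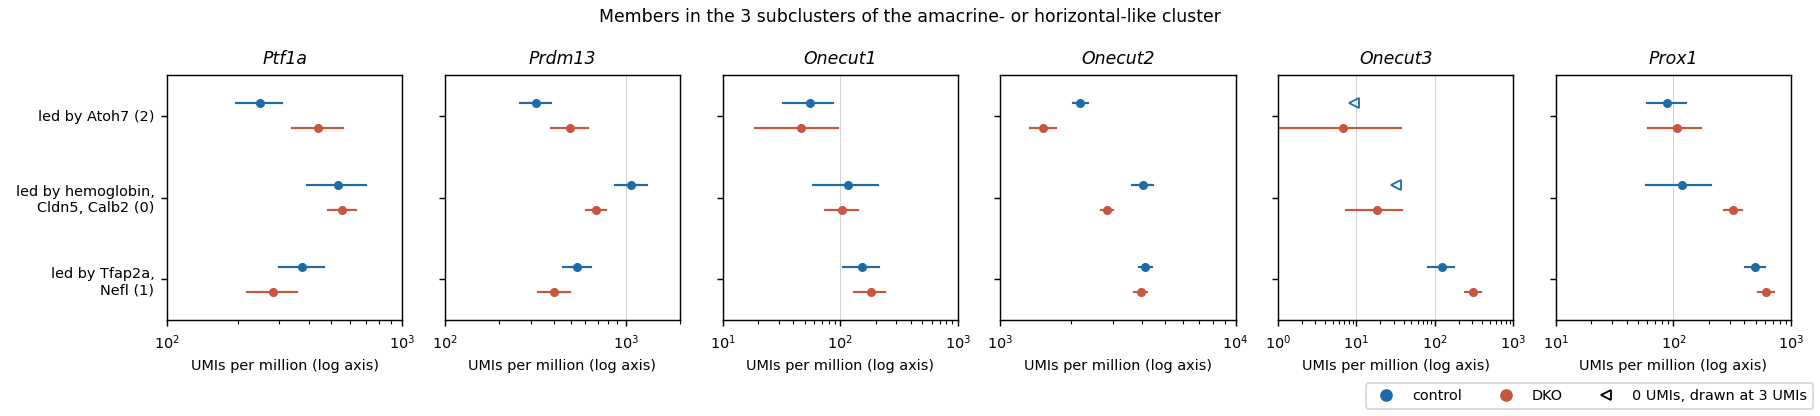
Levels of 6 genes in CPM, on log axes with a range of their own, in the 3 subclusters of the amacrine- or horizontal-like cells of the control (blue) and DKO (red) library, with lines for exact 95% counting intervals and open triangles where 0 UMIs were counted. *Onecut3* was found almost entirely in the subcluster led by *Tfap2a* and *Nefl*. *Ptf1a* and *Prdm13* had their highest values in the subcluster led by hemoglobin genes and *Cldn5*, where the DKO *Ptf1a* interval overlapped that of the *Atoh7*-led subcluster.

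The α-Cre mosaic made the *Six3* level of the DKO cells part of each comparison. When DKO cells were clustered alone, subclusters at less than 50% of the *Six3* level of all control retinal cells were called *Six3*-low. They held 3522 of 10714 retinal cells (32.9%). Among these were 1392 of 3123 naive progenitor-like cells (44.6%), 580 of 619 cells of cluster 10 and 426 of 429 cells of cluster 14. The low-UMI cluster 3 gave 371 of its 1155 DKO cells, but only 1 against the *Six3* level of its own control cells. These 371 cells stayed in the comparisons over all retinal cells. The *Six3*-low subclusters included only 2 of 184 amacrine- or horizontal-like cells (1.09%), 41 of 1730 neurogenic-like cells (2.37%) and 102 of 2376 ganglion-like cells (4.29%). The comparisons within the neurogenic-like, ganglion-like and amacrine- or horizontal-like classes therefore rest almost entirely on DKO cells outside the *Six3*-low subclusters. *Six3* itself was higher in the amacrine- or horizontal-like cells of the DKO library, at 940 against 627 CPM, while *Six6* was at 12.8 against 204 CPM. DKO cells without Cre activity kept both *Six3* alleles, whereas the control was *Six3*+/-. The part of this in the *Six3* difference was not tested.

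Within the *Six3*-low cells *Ptf1a* had 9 UMIs (0.354 CPM) and *Prdm13* 12 UMIs (0.473 CPM), against 414 and 483 UMIs (8.87 and 10.3 CPM) in the other DKO retinal cells. *Onecut1* was at 4.10 against 26.6 CPM, *Onecut2* at 81.8 against 611 CPM and *Onecut3* at 3.15 against 23.9 CPM. *Foxn4* differed less, at 19.1 against 22.2 CPM (−0.22 [−0.38, −0.07]), and *Prox1* was at 20.9 against 39.0 CPM. These groups differ in their mix of cell classes, and the level of *Six3* and that mix cannot be told apart over all retinal cells. Within naive progenitor-like cells alone, the *Six3*-low cells against the control gave 0.02 [−0.15, 0.19] for *Foxn4*, −0.50 [−0.72, −0.28] for *Onecut2* and −0.32 [−0.53, −0.13] for *Prox1*.

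**Figure D5:**
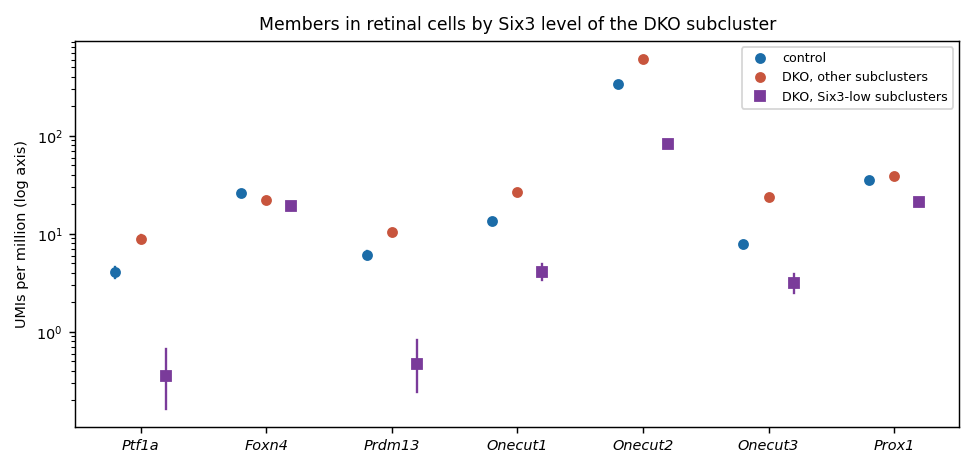
Level of each gene, in CPM on a log axis, over retinal cells of the control library, DKO cells outside the *Six3*-low subclusters and DKO cells within them, with lines for exact 95% counting intervals. *Ptf1a* and *Prdm13* were at 0.354 and 0.473 in the *Six3*-low cells against 8.87 and 10.3 in the other DKO cells, whereas *Foxn4* was at 19.1 and 22.2.

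The clusters without control cells differed from each other in these genes. Cluster 10, led by *Rspo3*, *Lhx9* and *Uncx*, held *Onecut2* at 328 CPM, *Onecut1* at 15.3 CPM and *Onecut3* at 8.72 CPM, with 4 *Ptf1a* and 7 *Prdm13* UMIs. Cluster 14, led by *Fabp7*, *Fgfbp3* and *Sox21*, held *Prox1* at 44.6 CPM and *Foxn4* at 14 CPM but 0 UMIs of *Ptf1a*, *Prdm13* and *Onecut3*. A count of 0 in that cluster allows a level of up to 1.11 CPM.

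Other genes of horizontal and amacrine development were read as a list of 17. Over all retinal cells 15 could be counted, of which 3 were at least 2-fold higher in the DKO library and 1 at least 2-fold lower, against 5.77% and 1.12% of all genes, with a median log2 ratio of 0.72 against 0.04 for all genes. The highest were *Tfap2c*, an AP-2 factor, with 111 and 2340 UMIs (4.26), and *Sall3*, a zinc finger factor (2.54), and the lowest were *Nr4a2*, a nuclear receptor of amacrine cells (−1.53), and the glycine transporter gene *Slc6a9* (−0.32). In the amacrine- or horizontal-like cells 7 were countable, 1 passed 2-fold (*Barhl2*, 1.10) against 2.74% of all genes, and the median was −0.03, the same as over all genes. *Tfap2c* had only 10 and 18 UMIs in those cells, while *Six3*-low DKO cells held 1303 of its 2340 UMIs.

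The second list held 6 partners of *Ptf1a* and Notch genes linked to it. Of 5 countable genes none passed 2-fold over all retinal cells, where 5.77% of all genes were 2-fold higher and 1.12% 2-fold lower. The median was −0.10 against 0.04 for all genes. The Notch effector gene *Rbpj* was at 132 and 150 CPM (0.18), the E protein gene *Tcf12* at 195 CPM in both libraries, *Tcf3* at 93.9 and 73.8 CPM (−0.35) and the Notch ligand gene *Dll4* at 10.6 and 8.76 CPM (−0.28). In amacrine- or horizontal-like cells 4 of the 6 were countable with a median of −0.21, against −0.03 for all genes. The median was 0.15 in naive progenitor-like, −0.0009 in neurogenic-like and −0.52 in ganglion-like cells. Over all genes it was 0.02, 0.02 and 0.04 there.

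Across 38 cluster-by-library groups of at least 50 cells, the gene whose log2(CPM + 1) pattern was most like that of *Ptf1a* among 12491 genes was *Prdm13* (Pearson r = 0.949), followed by *Chodl* (0.865) and *Tfap2b* (0.821), and *Prdm13* had the same 3 neighbours with *Ptf1a* in its own place. *Onecut1* was most like *Slit1* (0.953), *Onecut2* most like *Elavl3* (0.969) and *Onecut3* most like *Nyap2* (0.939). *Foxn4* was most like *Rnf138rt1* (0.897) and *Prox1* most like *Pde4d* (0.840). These values share libraries, clusters and depth and are descriptions only.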

How the data were processed

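The authors captured single cells of E13.5 eyecups in droplets, mapped the 3′ reads to mm10 with Cell Ranger 3.1.0 and deposited raw UMI counts per gene and cell for 1 control and 1 DKO library. The filter stated by the study was applied, which keeps cells above 200 and below 6000 detected genes whose mitochondrial share was under 20%. Libraries were integrated with Seurat 5.3.0 in R 4.3.3 (2000 features, 20 dimensions, resolution 0.5), with the 7 members, the list genes, *Six3*, *Six6*, hemoglobin and sex-linked genes left out of the features. A cluster was named where at least 75% of a marker list was above the rest, a threshold set after the clusters were seen, and where several lists passed, by the one with more markers among its 10 leading genes. The members, lists and tests were chosen with earlier results of these data known.

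Levels were CPM from summed UMIs with exact 95% Poisson intervals, ratios had the exact interval of the binomial split, and shares had Clopper-Pearson intervals (Python 3.11.15, scipy 1.17.1). With 1 library per genotype no test between genotypes was possible and no p-value was computed. The scripts for ratios were tested on simulated data. Named were all 7 members, the 2 highest and 2 lowest ratios of a list, the 3 genes most like each member by Pearson correlation (genes with at least 200 UMIs), not all of which are reported here, and *Six3* and *Six6*. A gene counted as past 2-fold where it had at least 50 UMIs over both libraries. A count of 0 was read as up to 3 UMIs. Doublets were called with Scrublet (scanpy 1.11.5) and kept. Its automatic threshold was 0.635 in the control library, and the lower DKO threshold of 0.225 was used for both, which called 300 control and 329 DKO cells. The 10 other settings tried were resolution, clustering features, integration, doublets, a minimum of 1000 genes, another linear algebra kernel, *Six3*-low cells alone, the denominator, the averaging scale and leaving out clusters nearly without control cells, besides the thinning depth of 1000, 2000 or 4000 UMIs. A further 3 were chosen after seeing the data.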

Additional observations from a re-analysis of the deposited data

Results flagged for a closer look

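*Prox1* was singled out because its DKO and control levels differed in opposite directions in different cell classes, with intervals on either side of 0. The log2 ratio of DKO over control was 0.37 [0.20, 0.54] in neurogenic-like cells and 0.66 [0.37, 0.95] in amacrine- or horizontal-like cells, against −0.39 [−0.55, −0.24] in naive progenitor-like cells and −0.92 [−1.08, −0.75] in ganglion-like cells. The neurogenic-like ratio turned to −0.20 when the libraries were merged without integration, and the amacrine- or horizontal-like ratio to −0.74 at resolution 1. Within the amacrine- or horizontal-like class the ratio was 1.46 [0.57, 2.50] in the hemoglobin-led subcluster 0 (11 and 124 UMIs). In subclusters 1 and 2 it was 0.30 and 0.26, with intervals that included 0. With 1 library per genotype the difference between classes was not tested.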

How the results depend on the processing

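No paired analysis was possible because there was 1 library for control and 1 for DKO. Of 153 alternatives to the 15 ratios and medians over all retinal cells and within amacrine- or horizontal-like cells, 128 stayed within the counting interval with the same direction, 17 moved and 8 turned; of 397 alternatives to 55 other values, 298 stayed, 90 moved and 9 turned. With *Six3*-low DKO cells alone, the log2 ratios over all retinal cells were −3.51 for *Ptf1a*, −0.47 for *Foxn4*, −3.69 for *Prdm13*, −1.71 for *Onecut1*, −2.04 for *Onecut2*, −1.31 for *Onecut3* and −0.76 for *Prox1*, and the medians were −0.62 and −0.14 for the 17-gene and 6-gene lists; amacrine- or horizontal-like cells gave no value, having fewer than 50 such cells. Averaging the log of counts per 10000 plus 1 over cells shrinks low genes and gave 0.048, −0.068, 0.073, 0.29 and 0.13 for *Ptf1a*, *Foxn4*, *Onecut1*, *Onecut2* and *Onecut3*, 0.024 for *Prox1*, 0.19 and −0.011 for the lists, and 0.55 for *Onecut3* in amacrine- or horizontal-like cells. Leaving doublets out gave 0.37 for *Onecut2*, and leaving out clusters nearly without control cells gave 0.40 for *Onecut2* and 0.66 for the 17-gene list. At resolution 1 the amacrine- or horizontal-like name also took the *Tac1*-led cluster of 91 control and 629 DKO cells, which had no marker of the class among its leading genes, and the ratios became −1.17 for *Ptf1a*, −1.47 for *Prdm13*, −0.39 for *Onecut2* and −0.74 for *Prox1*; with marker-led clusters alone, added after seeing the data, *Ptf1a* was at 0.46, *Onecut3* at 1.37 and *Prox1* at 0.70. In naive progenitor-like cells *Onecut2* turned to 0.17 at resolution 1. Merged without integration, it turned to 0.52, the 6-gene list there to −0.0046, *Prox1* in neurogenic-like cells to −0.20, and in ganglion-like cells *Onecut1* to −0.072, *Onecut3* to −0.18 and the 17-gene list to −0.014; the ganglion-like *Prdm13* ratio turned to 1.59 with no gene left out of the clustering and 2.80 without doublets. Depth limits the amacrine- or horizontal-like values.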

Other observations

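The amacrine- or horizontal-like markers *Lhx1*, a homeodomain gene of horizontal cells, and *Tfap2a*, an AP-2 factor of both interneurons, had most of their DKO UMIs outside the class they define. *Lhx1* had 26 UMIs in control retinal cells and 784 in DKO retinal cells, of which 78 lay in amacrine- or horizontal-like cells (22 in the control), 316 in cluster 10, 157 in ganglion-like cluster 4 and 147 in neurogenic-like cluster 2. *Tfap2a* had 26 and 247 UMIs, of which 77 lay in amacrine- or horizontal-like cells (14 in the control) and 73 in cluster 10. These counts have no replicate check.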
